A study of Mus musculus with 5 samples.

Results

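Senescence-associated chemokines and cytokines are secreted proteins that senescent and stressed cells release, and 10 of them were followed here by gene symbol among the 23284 symbols measured in each library: the chemokines Cxcl1, Cxcl2, Cxcl5, Cxcl10, Ccl2, Ccl7 and Ccl20, the interleukins Il6 and Il1b, and the metalloproteinase inhibitor Timp1. All 10 symbols are listed in the count table of every library. The RNA was that of primary acinar cells, which make the digestive enzymes of the pancreas, isolated from C57BL/6 mice aged 8 weeks. Arid1afl/fl;p48-Cre (knockout, 3 libraries) combines a floxed Arid1a, a subunit gene of the SWI/SNF chromatin remodelling complex, with a Cre recombinase that deletes it. The controls (2 libraries) were p48-Cre without the floxed allele, so that both groups carry Cre. The p48 (Ptf1a) locus that drives it is active in the pancreas from its progenitor cells on. The cells had been freed by enzymatic digestion and kept warm in serum-containing medium for 1 hour before RNA extraction. Whether the libraries stem from different animals is not stated, and the p-values therefore cover the spread between these libraries alone, which may be technical.

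A cell that has left the cell cycle for good can keep on secreting, and this output is called the senescence-associated secretory phenotype. Its chemokine and interleukin genes are driven largely by the transcription factors NF-κB and C/EBPβ, are also switched on within an hour by wounding, bacterial products or tissue dissociation, and yield mRNAs that are rapidly degraded. Cxcl1, Cxcl2 and Cxcl5 attract neutrophils through the receptor Cxcr2, Cxcl10 attracts activated T cells through Cxcr3, Ccl2 and Ccl7 attract monocytes through Ccr2, and Ccl20 attracts cells bearing Ccr6. Il6 and Il1b are inflammatory interleukins, and Timp1 inhibits the matrix metalloproteinases that are themselves part of the secretory phenotype. In the pancreas, acinar cells are a known source of such chemokines in pancreatitis.

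The stretches of 200 bases directly upstream of the annotated transcription start are shown for 6 of the factors, of which 5 hold a match to the binding consensus of NF-κB and Timp1 is shown as one without. Il1b, not shown, holds none either. The sequences are RefSeq promoter sequences of the build GRCm38.p6, given 5′ to 3′ on the strand of the gene, with the bases matching the NF-κB consensus in capitals. The window of Cxcl1 is chr5:90891045-90891244 on the plus strand, that of Cxcl2 chr5:90903699-90903898 on the plus strand, that of Cxcl10 chr5:92348890-92349089 on the minus strand, that of Ccl20 chr1:83116566-83116765 on the plus strand, that of Il6 chr5:30012914-30013113 on the plus strand and that of Timp1 chrX:20869966-20870165 on the plus strand.
Cxcl1: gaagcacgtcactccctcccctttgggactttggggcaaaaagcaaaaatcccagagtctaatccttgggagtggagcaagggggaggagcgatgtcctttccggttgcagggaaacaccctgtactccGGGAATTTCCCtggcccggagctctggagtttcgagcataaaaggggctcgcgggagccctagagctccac
Cxcl2: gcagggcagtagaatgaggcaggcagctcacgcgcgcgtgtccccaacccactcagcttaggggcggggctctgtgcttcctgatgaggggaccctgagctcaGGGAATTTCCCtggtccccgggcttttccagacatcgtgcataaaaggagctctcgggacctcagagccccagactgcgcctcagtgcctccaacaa
Cxcl10: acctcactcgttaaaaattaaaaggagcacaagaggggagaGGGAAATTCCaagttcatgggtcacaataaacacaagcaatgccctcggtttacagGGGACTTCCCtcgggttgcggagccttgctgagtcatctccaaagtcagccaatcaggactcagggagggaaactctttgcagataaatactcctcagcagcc
Ccl20: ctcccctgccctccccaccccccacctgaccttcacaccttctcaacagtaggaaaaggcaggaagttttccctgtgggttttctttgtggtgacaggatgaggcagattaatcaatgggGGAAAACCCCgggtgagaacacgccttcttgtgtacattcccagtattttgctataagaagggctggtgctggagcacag
Il6: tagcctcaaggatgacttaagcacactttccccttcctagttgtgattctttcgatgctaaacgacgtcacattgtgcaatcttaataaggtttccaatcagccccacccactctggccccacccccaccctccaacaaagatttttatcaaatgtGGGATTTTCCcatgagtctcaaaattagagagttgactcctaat
Timp1: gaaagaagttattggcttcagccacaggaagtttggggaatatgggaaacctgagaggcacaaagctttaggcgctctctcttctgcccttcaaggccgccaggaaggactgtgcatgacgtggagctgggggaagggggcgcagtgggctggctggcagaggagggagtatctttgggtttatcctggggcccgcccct

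Cxcl1 and Cxcl2, neighbouring genes on chromosome 5, carry the same match. It reads as the consensus on both strands in overlapping frames, and its first base lies 71 bases upstream of the start in Cxcl1 and 97 in Cxcl2. Cxcl10 has a match that begins 159 bases upstream and another at 103, Ccl20 has one on the opposite strand at 80, and Il6 has one at 44. Over the whole windows of 300 bases (250 before the start and 50 after it) 5 of the 7 factors with a promoter sequence held the consensus on either strand, against 4.51% of 32851 mouse promoters of the same length. The AP-1 motif TGANTCA, the binding site of Fos and Jun proteins, was present in 2 of these 7, Cxcl10 and Il6, and in 7.81% of all promoters. The pentamer ATTTA, a component of AU-rich elements, occurred 7.35 times per kilobase in the longest protein-coding transcript of Cxcl1 (GENCODE M21), 6.35 times in Ccl20, 5.92 times in Cxcl2 and 4.27 times in Il6. In Timp1 it occurred 1.13 times per kilobase, the lowest density of the 10, which 37.9% of 21877 genes reached or passed. The median over these genes was 0.822. A match to a motif describes the letters and not binding or decay.

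The knockout libraries held 3471701, 4049215 and 3609099 counts in all and the control libraries 291677 and 589798. Levels are given as CPM, counts scaled to a library total of 1000000, with Rn45s, the ribosomal RNA precursor, and Lars2 left out of the total. On that base the knockout libraries held 3155357, 3568906 and 3345121 counts and the control libraries 67514 and 72006. Rn45s took 6.78% to 10.9% of all counts in the knockout libraries and 72.6% and 82.2% in the controls. A floor of detection of 3 counts equalled 0.841 to 0.951 CPM in a knockout library, 41.7 to 44.4 CPM in a control library and 21.5 CPM over both controls together. Depth and Rn45s share separated the libraries as genotype did and cannot be told apart from it. Acinar markers made up 543000, 455000 and 569000 CPM in the knockout libraries and 430000 and 471000 CPM in the controls, so the labelled cell type was present in all 5. Arid1a itself had 44, 121 and 42 counts in the knockout libraries and 0 and 3 in the controls, which pooled to a ratio of 0.956 (exact 95% interval 0.323 to 4.67). A count over the whole gene, exons outside any deleted part included, does not check the genotype.

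Within the knockout group the factors were detected in 2 libraries and mostly missing from the third. Knockout 1 had at least 3 counts of all 10 factors, knockout 2 of 9, and knockout 3 of 3, which were Cxcl1, Il1b and Timp1. These 3 were the factors detected in every knockout library, against 34.9% of all symbols, and without knockout 3 the number was 9. Neither control reached 3 counts of any factor, and each held a single count among all 10, of Timp1 in control 1 and of Cxcl10 in control 2. The other 8 factors had no control count, where 54.4% of the genes with a summed knockout count in the same range (10 to 174) had none. Only the ends of this range were matched. At the pooled knockout share the controls would have held 0.139 to 0.263 counts of each of Ccl2, Ccl7, Ccl20, Il6 and Il1b. In bulk RNA, fewer producing cells and less RNA in each of them cannot be told apart.

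**Figure D1:**
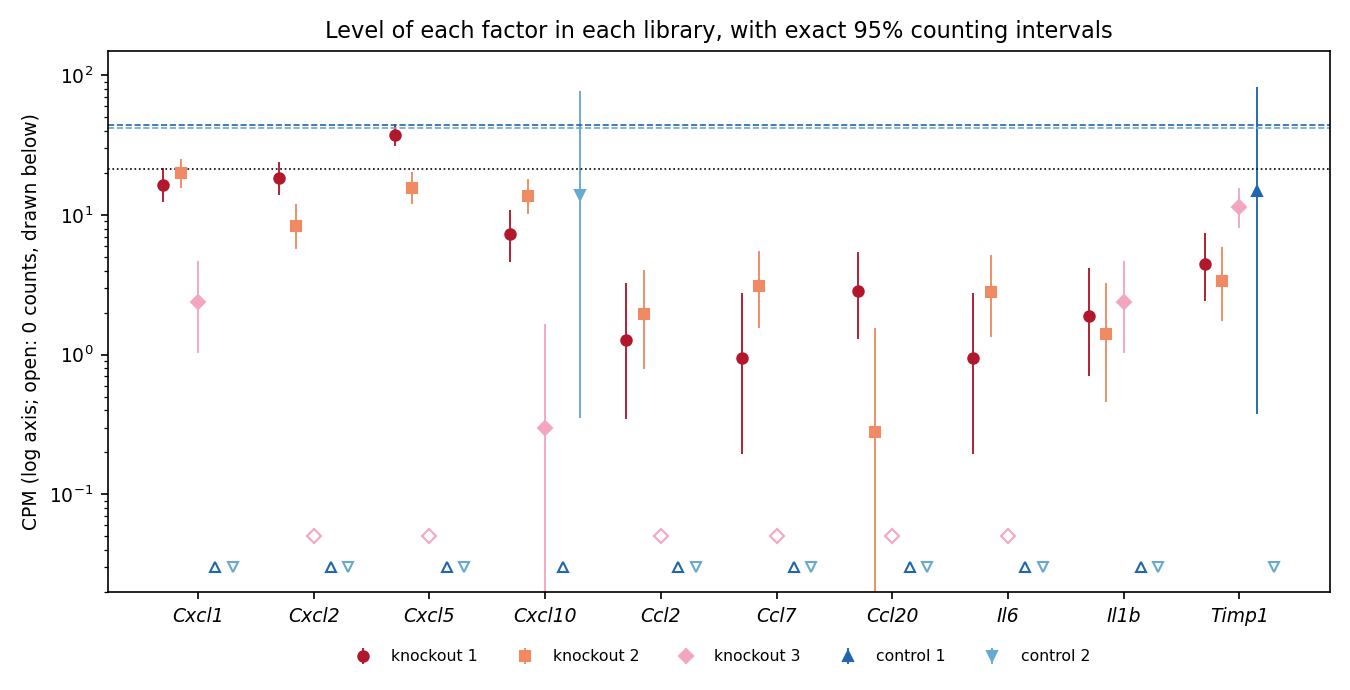
Level of each factor in CPM (log axis) in each library, with exact 95% intervals for counting error; open symbols at the bottom stand for 0 counts. Dashed lines mark 3 counts in a control library (44.4 and 41.7 CPM) and the dotted line 3 counts over both controls (21.5 CPM). Every knockout point lies below the dashed lines, and 6 of the 10 factors have an open symbol for knockout 3.

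Cxcl5, a neutrophil attractant also made by epithelial cells, had the highest mean CPM over the knockout libraries, which knockout 1 carried. It had 118, 56 and 0 counts in the knockout libraries, or 37.4, 15.7 and 0 CPM, and no count in either control. At the pooled share of knockouts 1 and 2, knockout 3 would have held 86.6 counts, and the exact 95% interval of its count of 0 reaches 1.1 CPM. Cxcl1 was higher than Cxcl5 in knockout 2 and Timp1 was the highest factor in knockout 3. Knockouts 1 and 2 also differed from each other beyond counting error, with exact 95% intervals of 31.0 to 44.8 CPM in knockout 1 and 11.9 to 20.4 CPM in knockout 2. The value of 37.4 CPM was the highest of any factor in any knockout library, and it stood below the floor of either control.

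Cxcl2, the mouse MIP-2 chemokine, followed the same order. It had 18.4, 8.41 and 0 CPM in the knockout libraries (58, 30 and 0 counts) and no control count. The intervals of knockouts 1 and 2 did not overlap here either (14 to 23.8 CPM in knockout 1 and 5.67 to 12 CPM in knockout 2). Of the words of 50 bases in its transcript 3.37% also occur in Cxcl3, so part of its reads could be split with that neighbour, which had 3, 0 and 3 knockout counts. For Cxcl5, 3.08% of such words also occur in other genes, Cd69 and Nrxn2 among them.

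Cxcl1, the mouse KC chemokine, was the one member of this trio with reads in every knockout library. It had 52, 71 and 8 counts there, or 16.5, 19.9 and 2.39 CPM, and none in the controls. Knockouts 1 and 2 overlapped within counting error (12.3 to 21.6 CPM in knockout 1 and 15.5 to 25.1 CPM in knockout 2), and knockout 3 lay below both at 1.03 to 4.71 CPM. Summed over Cxcl1, Cxcl2 and Cxcl5 the knockout libraries held 72.3, 44.0 and 2.39 CPM and the controls no count. At the pooled knockout share of 39.0 CPM the 2 controls would have held 5.45 counts of the trio in all.

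Cxcl10, the interferon-inducible chemokine, was split the other way between knockouts 1 and 2. It had 23, 49 and 1 counts in the knockout libraries (7.29, 13.7 and 0.299 CPM) and 0 and 1 counts in the controls (0 and 13.9 CPM). The groups overlapped, since the single read in control 2 is worth about as much as 49 reads in knockout 2. Pooled, the knockout to control ratio was 1.01 (exact 95% interval 0.176 to 40.5). At this depth no difference in Cxcl10 could be detected.

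The CC chemokines were near the floor even in the deep libraries. Ccl2, the monocyte attractant MCP-1, had 4, 7 and 0 counts in the knockout libraries, its chromosomal neighbour Ccl7 had 3, 11 and 0, and Ccl20 had 9, 1 and 0. None had a control count. Ccl20 was the one of the 3 whose reads came mainly from knockout 1, with 2.85 CPM there and 0.28 CPM in knockout 2. Together the 3 genes made 5.07, 5.32 and 0 CPM in the knockout libraries, and the intervals of knockouts 1 and 2 overlapped (2.9 to 8.23 CPM in knockout 1 and 3.21 to 8.31 CPM in knockout 2). The controls would have held 0.485 counts of the 3 genes at the pooled knockout share.

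Of the interleukins, Il6 followed the chemokines and Il1b did not. Il6, the best known secreted cytokine of senescent cells, had 3, 10 and 0 counts in the knockout libraries (0.951, 2.8 and 0 CPM) and none in the controls. Il1b, made chiefly by myeloid cells, had 6, 5 and 8 counts in the knockout libraries (1.9, 1.4 and 2.39 CPM) and none in the controls. Its 3 knockout values lay within one another's counting intervals.

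Timp1 was the one factor that, among the knockout libraries, was highest in knockout 3 beyond counting error. It had 14, 12 and 38 counts in the knockout libraries (4.44, 3.36 and 11.4 CPM), with intervals of 2.43 to 7.44, 1.74 to 5.87 and 8.04 to 15.6 CPM, and 1 and 0 counts in the controls (14.8 and 0 CPM). Its ratio over the pooled libraries was 0.887 (exact 95% interval 0.154 to 35.6). Timp1 lies inside Syn1, a synapsin gene on the opposite strand, and the library kit does not mark strand. Syn1 had 0, 17 and 0 counts in the knockout libraries and none in the controls, so it was listed at 0 in knockout 3, where Timp1 was highest. Cxcl10, Ccl2 and Il1b also overlap a gene on the opposite strand, which for Cxcl10 is Art3, with 1, 8 and 0 knockout counts.

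**Figure D2:**
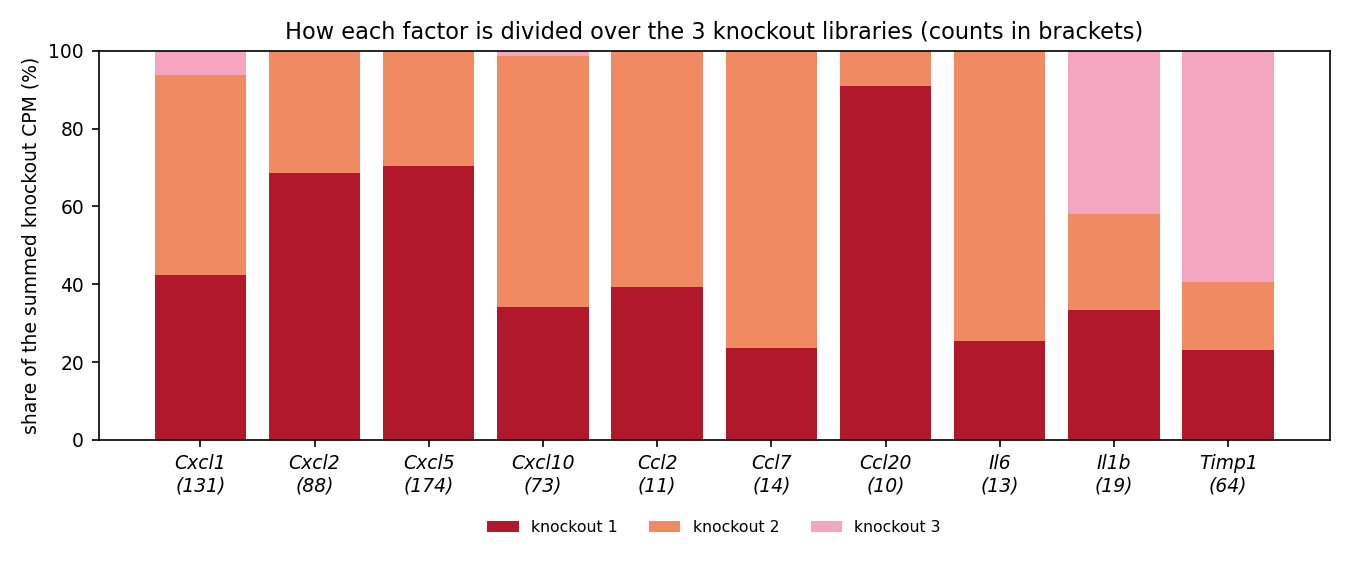
Share (%) that each knockout library takes of a factor's summed knockout CPM; the number under each name is the count over the 3 libraries. Knockout 3 holds 59.3% of Timp1 and 42% of Il1b, 6.17% of Cxcl1, 1.4% of Cxcl10 and none of the other 6 factors, and knockout 1 holds 70.4% of Cxcl5 and 91.1% of Ccl20.

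The missing reads in knockout 3 can be set against all genes. Of the 9 factors with at least 3 counts in both knockouts 1 and 2, 5 had no count in knockout 3 (Cxcl2, Cxcl5, Ccl2, Ccl7 and Il6). Among all 7920 genes with at least 3 counts in both and a count summed over both in the same range of 11 to 174, 10.6% had none. Only the ends of the range were matched, and Ccl2, Il6 and Ccl7 lay near its lower end (11, 13 and 14 counts). Being merely lower in knockout 3 than in both others was no mark of the factors, with 7 of 9 against 82.7% of all genes. This comparison was chosen after the values were seen and was not tested. On the scale of CPM per kilobase of exon, the mean over the 3 knockout libraries was highest for Cxcl5 (9.5 ± 10.1, SD, n = 3, again carried by knockout 1), followed by Timp1 (7.19 ± 4.89), Cxcl1 (6.89 ± 4.95), Cxcl2 (4.32 ± 4.45) and Cxcl10 (3.16 ± 2.98). The CC chemokines and interleukins followed, with 1.68 ± 1.97 for Ccl7, 0.995 ± 0.26 for Il1b, 0.946 ± 0.874 for Ccl2, 0.735 ± 1.11 for Ccl20 and 0.515 ± 0.587 for Il6. Neighbours in this order never differed by more than the larger of their SDs.

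Setting knockout against control libraries addresses whether these factors change in acinar cells when Arid1a is deleted. No difference was called for any of them. The edgeR quasi-likelihood test, with Benjamini-Hochberg adjustment over 8291 genes, called 149 genes (1.8%), of which 16 (0.193%) were higher and 133 (1.6%) lower in the knockout, and 5 of the 10 factors had enough counts to be tested. With TMM factors the split over all genes was 147 higher and 71 lower. The adjusted p from edgeR was 0.528 for Cxcl5, 0.57 for Cxcl1, 0.583 for Cxcl2, 0.97 for Timp1 and 1.0 for Cxcl10. Over the alternative settings the lowest adjusted p was 0.0914 for Cxcl1, 0.108 for Cxcl5, 0.146 for Cxcl2, 0.345 for Cxcl10 and 0.352 for Timp1, and the highest was 1.0 for each. None of the 5 had an unadjusted p under 0.05, against 1072 of all genes tested. By limma-voom no factor was called. DESeq2 gave an adjusted p for 1 of the 5 alone, Cxcl5 (0.502), and left the other 4 without one. None of the 5 had an unadjusted p under 0.05 by either tool. With TMM or RLE factors 1 factor had such a p, and with totals of all counts 3 did. For Timp1 the log2 fold change was -0.18 ± 2.1 (SE, edgeR) and for Cxcl10 it was 0.00064 ± 2.3. Both signs turned with the scaling, to 2.18 for Timp1 with TMM factors and to -0.21 for Cxcl10 with upper quartile factors. The edgeR fold changes of Cxcl1, Cxcl2 and Cxcl5 rest on controls without a count and are not given. Cxcl1 was the single tested factor with every knockout value above both controls, 1 of 5, where 35.6% of all tested genes were so arranged.

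The depth of the controls limits this comparison. At the pooled knockout share, both controls together would have held 2.41 counts of Cxcl5, 1.82 of Cxcl1, 1.22 of Cxcl2, 1.01 of Cxcl10 and 0.887 of Timp1, and from 0.139 to 0.263 of each of the other 5. Each of the 10 factors had a knockout mean under the control floor of 21.5 CPM, so no edgeR fold change is given for those without a control count. Summed over the 10 factors, the knockout libraries held 290, 252 and 55 counts (91.9, 70.6 and 16.4 CPM) and the controls 1 and 1 (14.8 and 13.9 CPM). The sum of knockout 3, with an interval of 12.4 to 21.4 CPM, lay close to the control values, whose own intervals reached 82.5 and 77.4 CPM. For the pooled sums the ratio was 4.14 (exact 95% interval 1.14 to 34.2). This interval covers the counting error of reads pooled over libraries and factors. It leaves out the spread between libraries and is no test of the groups. At the pooled knockout share the controls would have held 8.27 counts. With totals of all counts, Rn45s and Lars2 included, the ratio was 23.6 (6.52 to 196). On the totals without both genes, the interval reached below 1 without knockout 1 (ratio 3.1, 0.85 to 25.7), without control 1 (4.27, 0.763 to 169) and without control 2 (4.0, 0.716 to 158).

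**Figure D3:**
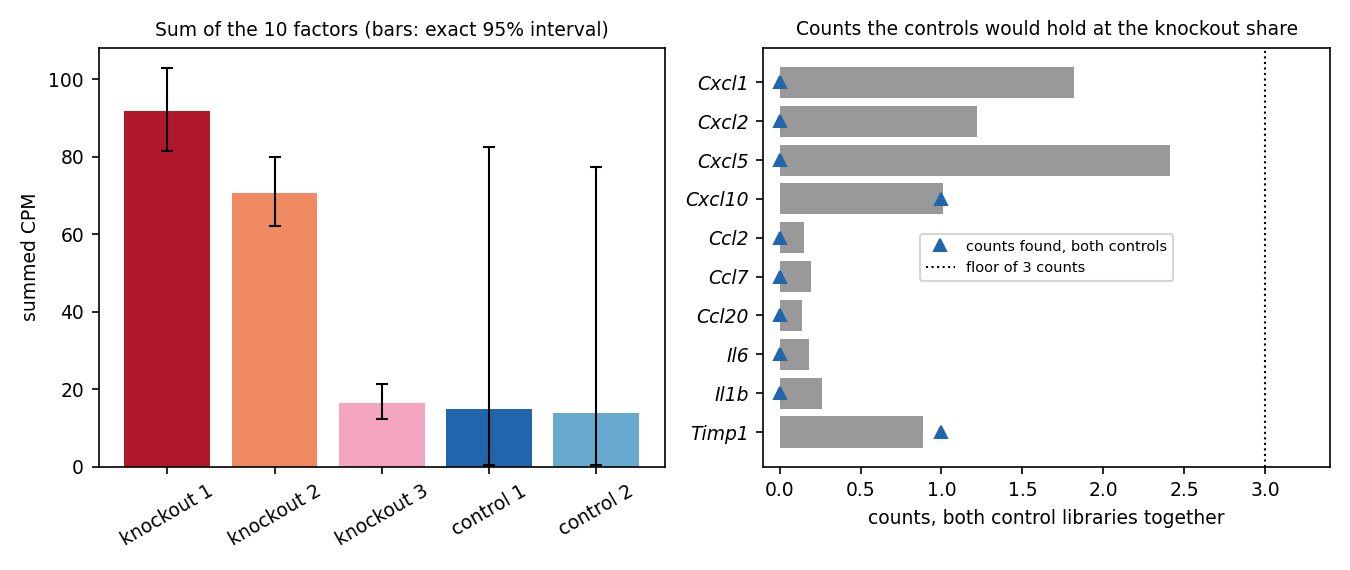
Left, summed CPM of the 10 factors in each library, with exact 95% counting intervals: 91.9, 70.6 and 16.4 in the knockouts and 14.8 and 13.9 in the controls. Right, the counts that both controls together would hold at the pooled knockout share (grey bars, 2.41 at most) with the counts found (triangles) and the floor of 3 counts (dotted line).

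Regulators of the NF-κB pathway, 28 genes, were in sum lowest in knockout 3, as were 82.7% of genes detected in both other knockouts. None of the 25 tested was called (edgeR). The 28 genes summed to 600, 1170 and 113 CPM in the knockout libraries and 459 and 625 CPM in the controls. Nfkbiz, a nuclear cofactor needed for Il6 transcription, had 85.3, 155 and 12.3 CPM in the knockouts and 59.2 and 0 CPM in the controls (adjusted p = 0.597, edgeR). Gata4, a factor that activates NF-κB in senescent cells, had 12, 17.1 and 2.09 CPM in the knockouts and 29.6 and 278 CPM in the controls (adjusted p = 0.106), and Traf2, an adaptor of TNF receptors, had 10.5, 16.3 and 4.48 CPM against 14.8 and 194 CPM (adjusted p = 0.242). The fitted median log2 fold change of the tested regulators fell on a gene without a control count and is not given. With genes without a control count set to the control floor, the median was -0.54, beside -1.14 over all tested genes. Of the 28 regulators, 16 had no control count.

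Receptors and binding partners were sparse. Of 15 measured, 7, 8 and 3 had at least 3 counts in the knockout libraries and 1 and 2 in the controls. None of 6 tested was called (edgeR, median log2 fold change -0.30, beside 0.22 over all tested genes). With genes without a control count set to the control floor, these medians were -1.33 and -1.14. Cd63, a tetraspanin that binds Timp1 at the cell surface, was the most abundant, at 93.5, 93.0 and 61.0 CPM in the knockouts and 59.2 and 27.8 CPM in the controls (adjusted p = 0.705). Il6st, the signalling subunit of the Il6 receptor, had 27.6, 45.7 and 5.38 CPM in the knockouts and 14.8 and 0 CPM in the controls (adjusted p = 0.618). Il1r1, which binds Il1b, had 5, 10 and 1 counts in the knockouts and 0 and 7 in the controls and was not tested.

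Other secreted factors of the senescence-associated phenotype, 53 genes, summed to 507, 1470 and 204 CPM in the knockout libraries and 1410 and 861 CPM in the controls. None of 27 tested was called (edgeR, median log2 fold change -0.17). With genes without a control count set to the control floor, this median was -0.71. Over all tested genes the 2 medians were 0.22 and, at the floor, -1.14. Spp1, osteopontin, which duct cells also express, had 88.4, 324 and 102 CPM in the knockouts and 444 and 389 CPM in the controls (adjusted p = 0.582). Hbegf, a ligand of the EGF receptor, had 55.1, 272 and 5.38 CPM against 178 and 0 CPM (adjusted p = 0.894), and Plat, tissue plasminogen activator, 12.7, 35.0 and 1.79 CPM against 88.9 and 111 CPM (adjusted p = 0.421). Of 12 further senescence-related genes measured, cell cycle inhibitors among them, none of 8 tested was called (median log2 fold change -0.76, the same at the floor). Cdkn1a, the p21 cell cycle inhibitor, had 122, 243 and 41.0 CPM in the knockouts and 0 and 27.8 CPM in the controls (adjusted p = 0.345, edgeR). Serpinb1a, a protease inhibitor, had 46.3, 62.8 and 29.0 CPM against 163 and 0 CPM, and Tmem173, the DNA sensor adaptor STING, 6.34, 9.53 and 0.299 CPM against 74.1 and 0 CPM. Interferon-stimulated genes, the class to which Cxcl10 belongs, summed to 84.6, 168 and 32.0 CPM in the knockouts and 444 and 194 CPM in the controls. None of 11 tested was called (median log2 fold change -1.54, and -1.68 at the floor, beside -1.14 over all tested genes at the floor). Stat2, a transcription factor of the interferon response, had 7.92, 7.0 and 3.29 CPM in the knockouts and 88.9 and 111 CPM in the controls (adjusted p = 0.135, edgeR). Rsad2, an antiviral effector, had 5, 9 and 1 counts in the knockouts and 6 and 0 in the controls and was not tested.

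Immediate-early genes, which dissociation of tissue induces within the hour, were lowest in knockout 3, as were 82.7% of genes detected in both other knockouts. The immediate-early sum was 5020, 10300 and 656 CPM in the knockout libraries and 2070 and 1260 CPM in the controls. Knockout 3 lay below the other 4 libraries. Of 21 tested, Egr1, a zinc finger transcription factor, rose (335, 987 and 26.9 CPM in the knockouts and 0 and 13.9 CPM in the controls; adjusted p = 0.0173, edgeR). Its pooled ratio had an exact 95% interval that reached 2560, because the controls held 1 count. The call was lost in 8 of the 16 alternatives, among them without knockout 1 (adjusted p = 0.577), without knockout 2 (0.167) and without control 1 (0.0717). The median log2 fold change of the list was 2.22, and 1.85 where genes lacking any control count were placed at the floor. Over all tested genes these medians were 0.22 and, at the floor, -1.14. Jund (789, 1570 and 126 CPM in the knockouts, 267 and 194 CPM in the controls), Fosb (453, 1250 and 30.5 CPM, against 207 and 41.7 CPM) and Ier2 (635, 926 and 142 CPM, against 193 and 0 CPM) were not called. Whether the response to dissociation had a part in the levels of the chemokines was not tested.

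**Figure D4:**
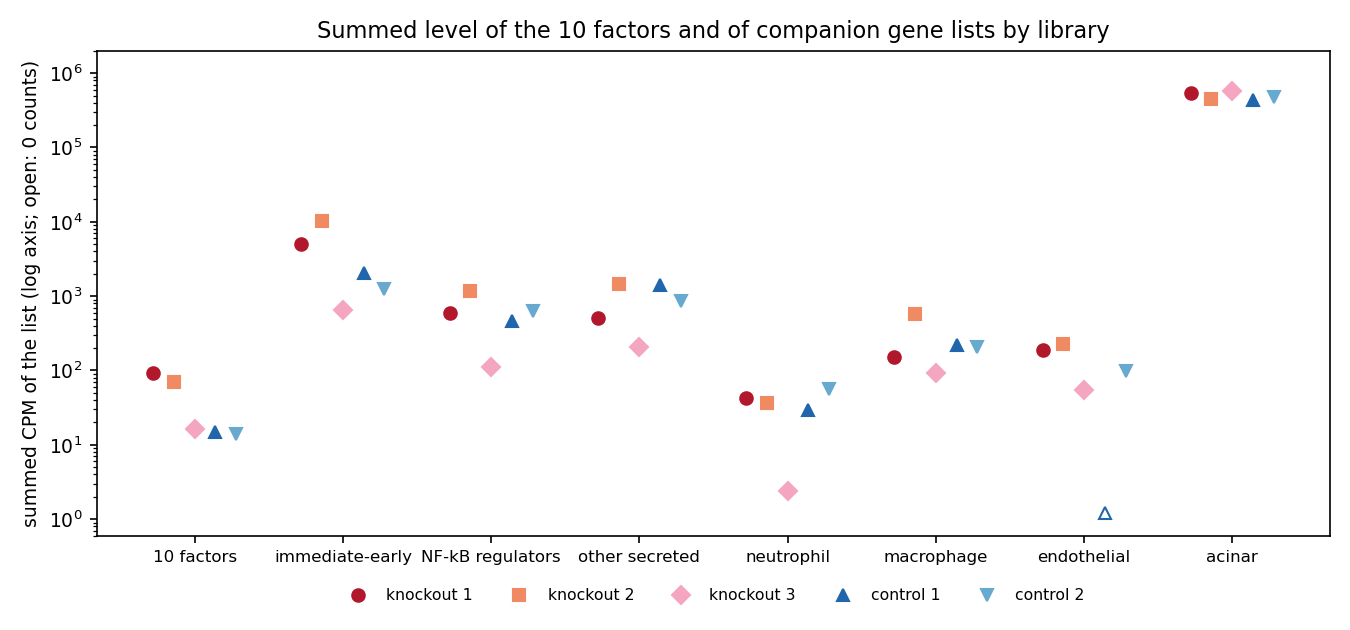
Summed CPM (log axis) of the 10 factors, of 6 companion gene lists and of acinar markers in each library; the open symbol stands for 0 counts. Knockout 3 lies below knockouts 1 and 2 in each list drawn but the acinar markers, from 2.39 CPM for neutrophil markers to 656 CPM for immediate-early genes. Lymphocyte, mesothelial, islet and duct markers, whose sums were not lowest in knockout 3, are not drawn.

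Markers of other cell types were checked beside the factors. In sum, those of neutrophils, macrophages, endothelium, fibroblasts and adipocytes were also lowest in knockout 3 among the knockout libraries. Of all genes with at least 3 counts in knockouts 1 and 2, 82.7% were lower in knockout 3 than in both. Among the knockout libraries, knockout 3 had the fewest symbols with a count (12016, against 13246 and 15465). Neutrophil markers summed to 42.2, 36.7 and 2.39 CPM in the knockout libraries and 29.6 and 55.6 CPM in the controls, and 5, 6 and 2 of 10 markers reached 3 counts in the knockouts. S100a9, an abundant neutrophil protein, had 35, 23 and 0 counts in the knockouts, and Ltf, lactoferrin, which glands also make, had 71, 75 and 0, while the granule protease Elane had 1, 1 and 0. The 2 neutrophil markers that reached 3 counts in knockout 3 were S100a8 (13, 9 and 3 counts) and Camp (0, 8 and 5). Csf3r, the neutrophil growth factor receptor, had 0, 1 and 0 counts in the knockouts and 0 and 4 in the controls. Macrophage markers, 15 genes, summed to 154, 572 and 92.1 CPM in the knockouts and 222 and 208 CPM in the controls. In the knockouts 10, 13 and 10 of the 15 reached 3 counts. The 3 with the highest mean CPM over the 5 libraries were Cd74 with 81.4, 282 and 61.6 CPM in the knockouts and 163 and 0 CPM in the controls, Cd14 with 53.9, 204 and 4.48 CPM against 14.8 and 0 CPM, and Itgam with 1, 0 and 0 counts against 0 and 10 counts, whose place rests on control 2. Other macrophage markers were divided. In the knockouts Cd68 had 2.22, 14.6 and 0 CPM and was lowest in knockout 3. C1qa (2.54, 9.25 and 7.77 CPM) and Tyrobp (1.58, 2.24 and 4.48 CPM) were lowest in knockout 1. Endothelial markers summed to 187, 224 and 53.8 CPM in the knockouts and 0 and 97.2 CPM in the controls, with 9, 10 and 7 of 10 markers at 3 counts or more in the knockouts and 0 and 1 in the controls. Fibroblast and stellate cell markers summed to 139, 341 and 64.0 CPM in the knockouts and 533 and 431 CPM in the controls, lymphocyte markers to 14.9, 70.0 and 22.4 CPM against 311 and 125 CPM, and mesothelial markers to 7.92, 78.2 and 8.97 CPM against 88.9 and 27.8 CPM. Duct markers summed to 4040, 7300 and 5910 CPM in the knockouts and 8720 and 2250 CPM in the controls. Tff2, a trefoil peptide, made up 1450, 1890 and 5130 CPM of this in the knockouts and 7080 and 1260 CPM in the controls. Without it, the other 11 summed to 2590, 5420 and 778 CPM in the knockouts and 1640 and 986 CPM in the controls, with knockout 3 lowest, a sum added after the values were seen. Islet markers summed to 191, 1020 and 223 CPM against 104 and 708 CPM, and adipocyte markers to 123, 89.9 and 8.97 CPM against 44.4 and 0 CPM. The 5 globin and erythroid genes measured were at 0 in every library. Among these marker lists and the acinar list, edgeR called 1 gene, the acinar lipase Cel, which fell (3430, 5490 and 5580 CPM in the knockouts and 11700 and 35100 CPM in the controls; adjusted p = 0.0055). That call was lost in 10 of the 16 alternatives, without control 2 (adjusted p = 0.579) and without knockout 1 (0.577) included, and the sign turned with totals of all counts. The part of other cell types in the levels of the factors was not tested.

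The genes divided over the knockout libraries most like the summed factors, which had 51.4%, 39.5% and 9.19% of their CPM in knockouts 1, 2 and 3, were sought among the 4039 genes that averaged 10 CPM or more there. Likeness was the summed absolute difference of the 3 shares. The nearest were Dohh, an enzyme that hydroxylates deoxyhypusine (1.11 percentage points), Umod, uromodulin (1.58), Gadd45g, a stress-inducible growth arrest gene (2.5), Gnmt, glycine N-methyltransferase (2.61), and 2410004N09Rik (4.41). In all 18 of the 4039 genes lay within 10 points, and with 3 libraries such likeness describes these libraries only.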

How the data were processed

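RNA was measured in 3 Arid1afl/fl;p48-Cre knockout and 2 p48-Cre control libraries. Per the labels' protocols, mRNA was captured with beads and made into libraries with a TruSeq v2 kit, which does not mark strand. The deposited values are whole-number read counts per gene symbol without normalization. The build mm9 and the tools HTSeq 0.9.1, Cuffdiff 2.2.1.5, Cuffnorm 2.2.1.2 and TopHat2 2.1.1 come from the submitters' processing notes, which give no role or order for them. For annotation and multiply mapped reads, nothing is given in the sources used here. No genome of that build was used here, and promoters come from RefSeq GRCm38.p6 and lengths and transcripts from GENCODE M21, matched by symbol.

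The 10 factors and the 18 gene lists, the factors included, were chosen with earlier results of these data known. CPM use totals without Rn45s and Lars2. The main test was edgeR 4.0.16 in R 4.3.3 (glmQLFit, robust, and glmQLFTest, two-sided, group as the only term) on those totals without further factors, so that fold changes are on the scale of the CPM. filterByExpr left 8291 genes, 33.5% of them without a control count, and genes were called at an adjusted p under 0.05. Means carry the SD. Intervals are exact 95% binomial (Clopper-Pearson, SciPy 1.17.1) and, like the floor of 3 counts, cover counting error only.

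Genes named from each list were the 3 with the highest mean CPM and any called member; 1 gene so chosen is not reported here. Knowing their values, Elane, S100a8, Camp, Cd68, C1qa, Tyrobp, Cxcl3, Syn1, Art3 and the genes of the closing section were picked in addition. Alternatives were other scaling factors (TMM, RLE, upper quartile), other library totals, other low-count filters (none, or 1 CPM in 2 libraries), DESeq2 1.42.0, limma-voom (limma 3.58.1), the replicate number as a block, each library left out and other detection floors. Leaving out libraries for counts of detected factors was added after the data were examined.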

Additional observations from a re-analysis of the deposited data

How the results depend on the processing

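No factor was called in any of the 16 alternatives run, of which DESeq2 gave no adjusted p for Cxcl1, Cxcl2, Cxcl10 and Timp1, and the lowest adjusted p was 0.0914, for Cxcl1 with TMM factors without Rn45s and Lars2. With 1 control left, the lone library is assumed to vary like the others. For Cxcl10 the log2 fold change reversed to -0.21 with upper quartile factors, -1.79 with limma-voom, -0.96 without control 1, -0.015 without knockout 1 and -0.90 without knockout 2, and with a library left out it ran from -0.96 to 7.18. For Timp1 it reversed to 2.18 and 2.14 with TMM factors without and with Rn45s and Lars2, 1.79 with RLE factors, 0.59 with upper quartile factors, 2.13 with totals of all counts, 0.10 with totals without acinar enzymes, 1.90 with DESeq2, 7.03 without control 1, 0.022 without knockout 1 and 0.13 without knockout 2, and with a library left out it ran from -1.21 to 7.03. Limma-voom turned Cxcl2 to -1.32 and Cxcl5 to -0.68, although neither gene had a count in either control. The knockout counts were 58, 30 and 0 for Cxcl2 and 118, 56 and 0 for Cxcl5. No knockout value of either gene lay below a control value, so these signs show no lower level in the knockout. Cel turned to 0.33 with totals of all counts. Too few counts were left to test Cxcl1, Cxcl2 and Cxcl5 without knockout 1 or knockout 2, and Timp1 without knockout 3. The cause of the reversals was not tested.

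Over all genes, 16 were higher and 133 lower. These were 147 and 71 with TMM factors without Rn45s and Lars2, 5 and 27 with TMM on all counts, 141 and 17 with totals of all counts, 28 and 239 with totals without acinar enzymes, 753 and 310 with DESeq2, and 0 and 43 with limma-voom, which left 773 genes at an unadjusted p under 0.05. The lower genes numbered 81 with RLE factors, 354 with upper quartile factors, 898 without a low-count filter and 388 with a filter of 1 CPM in 2 libraries. With a library left out, 0 to 19 were higher and 4 to 378 lower, with 0 and 4 without knockout 1. The median log2 fold change of all tested genes was 0.22, and it moved to 1.93 with TMM, 1.49 with RLE, 2.73 with totals of all counts and -0.82 with limma-voom.

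The replicate block gave 4 higher and 5 lower genes and no factor. The deviations from the group means correlated at -0.010 for number 1 and 0.036 for number 2. With 2 shallow controls, whose deviations mirror each other, these values cannot show whether libraries of the same number were paired.

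With a floor of 10 counts 1 factor was detected in every knockout library, and with a floor of 1 count there were 4. With a knockout library left out the number was 3 to 9, the 9 without knockout 3. In the controls no factor was detected with a floor of 3 or of 10 counts, and with a floor of 1 count there were 2, or 1 with either control left out. The ratio of the summed factors ran from 3.1 to 5.62 with a library left out and was 23.6 with totals of all counts and 4.73 without acinar enzymes.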

Other observations

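Other chemokine ligands were sparse as well. The files hold 34 symbols of the Cxcl, Ccl, Cx3cl and Xcl families, 27 of them outside the 10 factors, and 3 of the 27 had at least 3 counts in every knockout library. Cxcl16, a membrane-bound chemokine with a scavenger receptor role, had 51, 154 and 19 knockout counts and no control count, and its knockout mean of 21.7 ± 19.3 CPM (SD, n = 3) was the highest of any chemokine ligand in the files. Cxcl12, a homing signal made by stromal cells, had 14, 40 and 7 counts in the knockouts and none in the controls, and Ccl5, made chiefly by T cells, had 6, 35 and 11 in the knockouts and 0 and 1 in the controls. The adjusted p from edgeR was 0.494 for Cxcl16, 0.601 for Cxcl12 and 0.91 for Ccl5. Cx3cl1, fractalkine, had 15, 62 and 0 counts in the knockouts and none in the controls. Ccl22, which attracts cells bearing Ccr4, had 5, 15 and 1 counts in the knockouts and 0 and 4 in the controls (adjusted p = 0.251, edgeR), and it was the one ligand with 3 or more counts in a control. No count in any library was found for 6 of the 27.

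A few genes outside the 10 factors, chosen after their values were seen, were also lowest in knockout 3. So were 82.7% of all genes with at least 3 counts in both other knockout libraries. Csf3, the neutrophil growth factor G-CSF, had 59, 35 and 0 knockout counts, and Il1r2, the decoy receptor of interleukin-1, had 60, 36 and 1, with none in the controls for either. Il1rn, the interleukin-1 receptor antagonist, had 20, 82 and 0 counts in the knockouts and 0 and 4 in the controls. Socs3, the feedback inhibitor of Il6 signalling, was lowest in knockout 3 but well detected there, with 241, 421 and 46 counts in the knockouts and none in the controls (adjusted p = 0.243, edgeR).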
